A study of Drosophila melanogaster with 6 samples.

Results

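The genes described here are 10 Drosophila melanogaster genes for yolk, storage and lipid-carrying proteins: Yp1, Yp2, Yp3, Fbp1, Fbp2, Lsp1alpha, Lsp1beta, Lsp1gamma, Lsp2 and apolpp. They were chosen by name, from what their proteins do, but with earlier results of these data known. All 10 were found by their FlyBase identifiers among the 16942 genes in the deposited counts. The mRNA came from wild-type Dahomey males, reared at 100 larvae per vial, kept 10 per vial after eclosion, placed in individual vials at 1 d of age for 5 d and snap frozen. All had been exposed to rival males, and no pool without rivals is described here. The 3 pools, each of RNA from 40 male body parts, were abdomen after 2 h with rivals, head with thorax (head-thorax) after 2 h, and head-thorax after 26 h. From every pool 2 technical libraries were made (split library 1 and split library 2) and sequenced on separate lanes. Each group is therefore 1 pool, every test below compares these pools and not the conditions, and length of exposure and age cannot be told apart.

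Yolk proteins are made in the fat body and in the follicle cells of the ovary of adult females, and the growing oocyte takes them up through the receptor encoded by yl. In males the male form of Doublesex represses Yp1 and Yp2. Larval serum proteins are hexamerins, the storage proteins that the larval fat body secretes in bulk and takes back before metamorphosis, and apolpp encodes the apolipoprotein precursor of lipophorin, the main lipid carrier of the blood at all stages.

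Between 21070598 and 34217543 reads were counted per library, and 14694 genes had enough counts to be tested. Of the 10 genes, 8 were tested, and Fbp1 and Fbp2 fell below the limit on low counts. Markers of the body parts followed the labels. The summed level of 5 eye genes was 80.6 to 87.2 CPM (counts scaled to a common library size) in the abdomen libraries and 10084 to 10914 CPM in the 4 head-thorax libraries. The sum of 4 flight muscle genes was 222 to 226 CPM in abdomen and 3754 to 4227 CPM in head-thorax. The sum of 6 male reproductive genes was 6846 to 6916 CPM in abdomen. In head-thorax that sum was 6.94 to 9.70 CPM at 2 h and higher, at 14.8 to 20 CPM, at 26 h. Mitochondrial transcripts took 7.46% to 8.04% of the counts in abdomen, 17.3% to 17.9% in 2 h head-thorax and 21.6% to 22% at 26 h.

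Within this set apolpp was abundant in every pool, whereas the larval serum protein mRNAs Lsp2 and Lsp1beta were abundant in head-thorax and scarce in abdomen. Of the 8 tested genes, 6 were lower in abdomen than in 2 h head-thorax and none was higher, and 2 were lower and none higher in 26 h head-thorax than at 2 h. At an unadjusted p under 0.05 and any fold, 8 were lower in abdomen, and 4 were lower and 1 (apolpp) higher at 26 h. The share of all tested genes past this looser limit is not given here. Counts at an unadjusted p, for these genes and for the lists below, therefore cannot be set against a background. DESeq2 gave the same counts of 6 and 2 past the adjusted p and 2-fold limits. A gene counted as lower or higher at a Benjamini-Hochberg adjusted p under 0.05 in edgeR's quasi-likelihood test and a fitted ratio of at least 2-fold. By the same rule, 21.7% of all tested genes were lower and 35.6% higher in abdomen, and 1.5% were lower and 6.21% higher at 26 h. The median log2 ratio was −2.89 over the 8 genes against 0.06 over all tested genes for abdomen over head-thorax, and −0.31 against 0 for 26 h over 2 h.

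**Figure D1:**
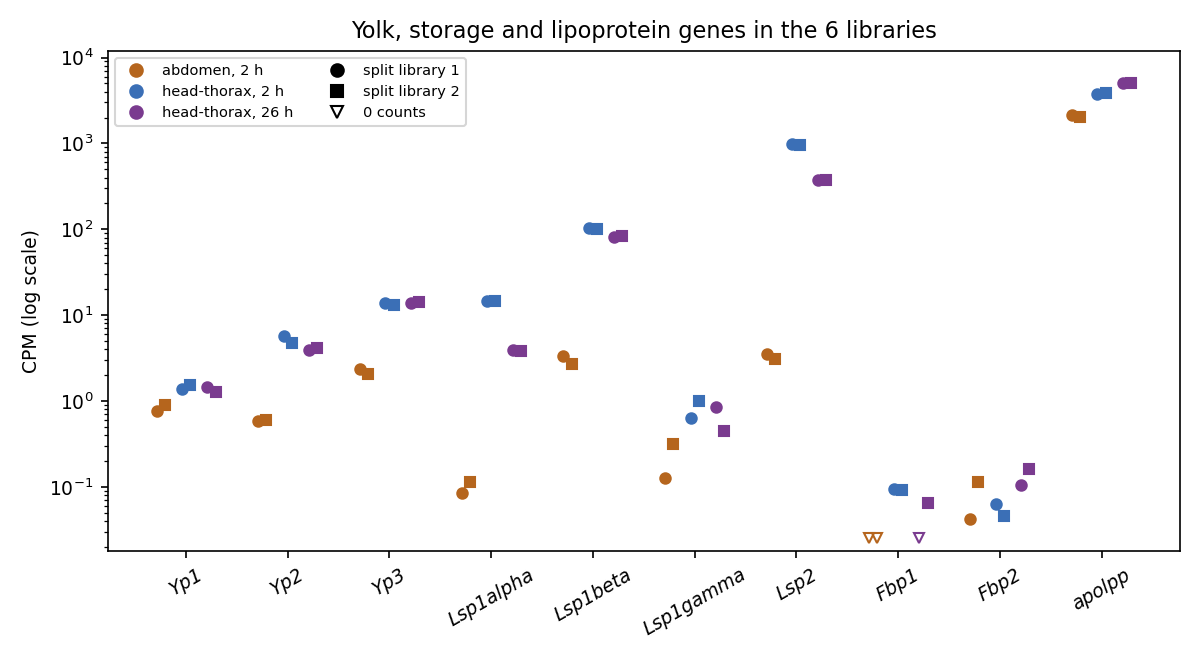
The level of each gene in each of the 6 libraries, in CPM on a log scale; colour gives the pool, circles and squares give split libraries 1 and 2, and open triangles at the foot mark libraries with 0 counts. The apolpp points lie between 2004 and 5074 CPM in all libraries, while the Lsp2 points lie near 3 CPM in abdomen and between 370 and 974 CPM in head-thorax.

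Of the yolk protein genes, Yp1 and Yp2 lie side by side on the X chromosome and are transcribed away from each other across a gap of 1174 bp, Yp1 at X:10053811-10055498 on the plus strand and Yp2 at X:10050951-10052636 on the minus strand of BDGP6.54. Yp3 lies apart from them, at X:13759546-13761547 on the plus strand.

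Per kilobase of exon, Yp3 was the most abundant yolk protein mRNA in each pool. Its libraries held 2.37 and 2.07 CPM in abdomen, 13.7 and 13.2 CPM in 2 h head-thorax, and 13.9 and 14.4 CPM at 26 h. Both abdomen libraries were far below all head-thorax libraries, and both 26 h libraries lay slightly above both 2 h libraries. Yp3 was 6.16-fold lower in abdomen than in 2 h head-thorax, with a log2 ratio of −2.62 ± 0.12 (standard error) and an adjusted p of 8.8e-37 in edgeR's quasi-likelihood test. Between 26 h and 2 h its log2 ratio was 0.07 ± 0.08 (adjusted p = 0.532, edgeR), a sign that turned with raw library totals (−0.030).

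Yp2 had 14 and 21 counts in the abdomen libraries, 183 and 103 in 2 h head-thorax, and 111 and 128 at 26 h, or 0.592 and 0.595, 5.73 and 4.70, and 3.92 and 4.09 CPM. Again abdomen lay below head-thorax without overlap. Yp2 was 8.88-fold lower in abdomen (log2 ratio −3.15 ± 0.21, adjusted p = 2.1e-25, edgeR). At 26 h both libraries were below both 2 h libraries, but the log2 ratio of −0.40 ± 0.13 (adjusted p = 0.0109, edgeR) did not reach 2-fold.

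Yp1, the scarcest of the 3 per kilobase in head-thorax, had 44 and 34 counts at 2 h and 41 and 40 at 26 h, and it had 18 and 32 counts in abdomen. These counts stand for 1.38 and 1.55, 1.45 and 1.28, and 0.761 and 0.907 CPM. The abdomen libraries were lower than each head-thorax library, and the 2 h and 26 h ranges overlapped. The log2 ratio of abdomen over head-thorax was −0.77 ± 0.27 (adjusted p = 0.00608, edgeR), which is 1.71-fold and under the 2-fold limit. For 26 h over 2 h it was −0.09 ± 0.24 (adjusted p = 0.808, edgeR).

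An annotated antisense gene, asRNA:CR45601, lies within Yp1 on the opposite strand (X:10054235-10055109, 875 bp). Its counts were 10 and 23 in abdomen, 24 and 22 in 2 h head-thorax and 25 and 25 at 26 h, between 54.6% and 71.9% of the Yp1 count in the same library. Whether the counting used strand, and how it treated overlapping genes, is not given in the sources used here, so reads of Yp1 and of this antisense gene cannot be told apart. The Yp1 counts beyond those of the antisense gene summed to 17 in abdomen, 32 in 2 h head-thorax and 31 at 26 h. Their log2 ratio of abdomen over head-thorax was −1.04, with a 95% counting interval of −1.98 to −0.15. This interval treats the remainder as a count of its own. That holds only if every read of the antisense gene was also counted for Yp1, which is not known, and otherwise the interval is too narrow. Yp2 and Yp3 overlap no annotated gene.

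The mix of the 3 yolk protein mRNAs was set out as each gene's share of their summed counts. Yp1 gave 23.4% of the 214 yolk protein counts in abdomen (exact 95% interval 17.9% to 29.6%), 7.14% of 1092 in 2 h head-thorax (5.69% to 8.84%) and 6.96% of 1164 at 26 h (5.56% to 8.58%). Yp3 gave 60.3% (53.4% to 66.9%), 66.7% (63.8% to 69.5%) and 72.5% (69.9% to 75.1%). The share of Yp2 was 16.4% in abdomen (11.7% to 22%), 26.2% at 2 h (23.6% to 28.9%) and 20.5% at 26 h (18.3% to 23.0%). These shares need no scaling between libraries, the Yp1 count includes any reads of its antisense gene, and the intervals cover counting error only. The Yp1 interval was separate from the others in abdomen, the Yp2 interval in 2 h head-thorax, and the Yp3 interval at 26 h, while the remaining pair of pools overlapped for each gene.

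**Figure D2:**
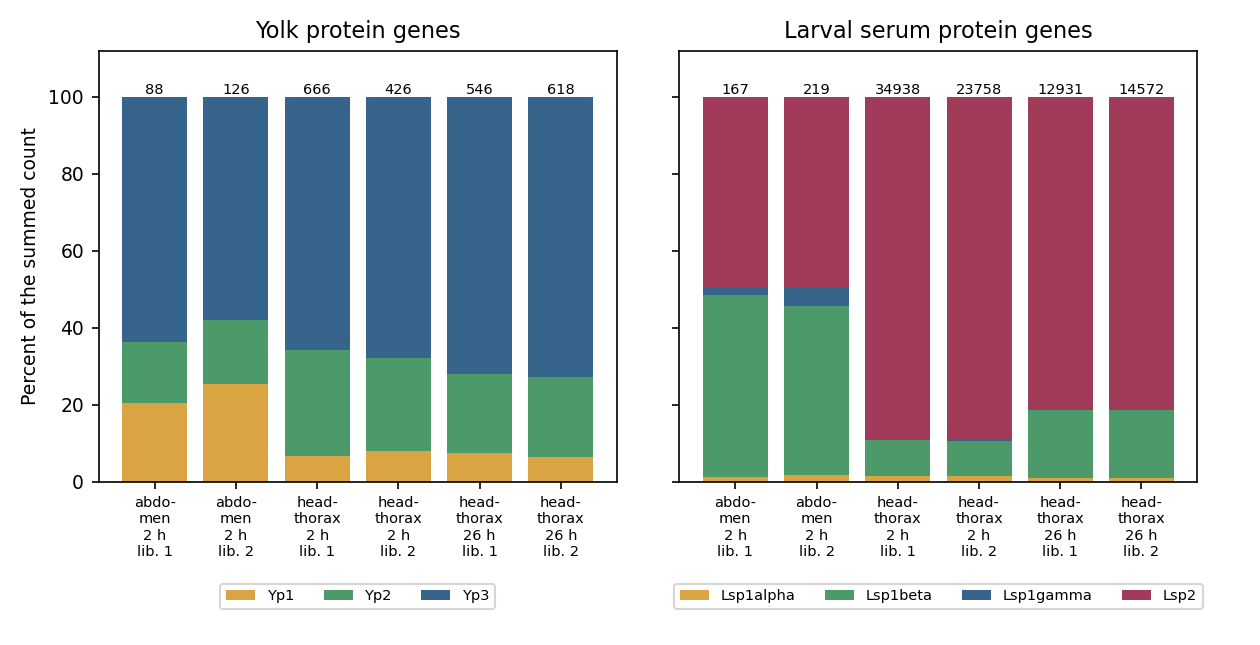
The percent of the summed yolk protein count (left) and of the summed larval serum protein count (right) that each gene gave in each of the 6 libraries, with the summed count above each bar. Yp1 takes a wider share in the abdomen bars than in the head-thorax bars, and Lsp2 takes about 50% of the larval serum protein count in abdomen, 89% in 2 h head-thorax and 81% at 26 h.

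Since the males have no ovary, markers of that organ were set beside the yolk protein genes. Over 21 ovary and eggshell genes the summed level was 4.52 to 5.81 CPM in abdomen, 2.56 to 3.13 CPM in 2 h head-thorax and 2.58 to 2.75 CPM at 26 h, and 7, 7 and 8 of them had no count. The eggshell genes Cp16 and Vm26Aa were at 0 counts in all libraries. Of the 6 that could be tested, the chorion gene Cp15 and the eggshell gene dec were higher in abdomen and yellow-g was lower. Summed counts in abdomen against 2 h head-thorax were 51 against 0 for Cp15, 104 against 2 for dec and 19 against 40 for yellow-g. Among all tested genes, 35.6% were higher and 21.7% lower in abdomen. The yellow-g call was lost with raw library totals, with DESeq2's Wald test, with the 2-fold limit inside the model, and without abdomen split library 1 or 2 h head-thorax split library 2. The yolk protein sum was in the other direction, higher in head-thorax, and any part of ovary transcripts in it was not tested. In bulk RNA, fewer cells of a type and less RNA per cell cannot be told apart, here and for every difference between pools below.

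Among the larval serum protein genes, Lsp2, Lsp1alpha and Lsp1beta had the lowest ratios of abdomen over head-thorax in the set. Lsp2 lies at 3L:12129393-12131869 on the plus strand and encodes the hexamerin that is also known to be made in adults. Its libraries held 83 and 108 counts in abdomen, 31116 and 21220 in 2 h head-thorax, and 10492 and 11847 at 26 h. Scaled for depth, these were 3.51 and 3.06 CPM, 974 and 968 CPM, and 370 and 379 CPM. The 3 pools did not overlap, and split libraries of a head-thorax pool lay within 1.023-fold of each other.

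Lsp2 was thus 299-fold lower in abdomen than in 2 h head-thorax (log2 ratio −8.23 ± 0.05, adjusted p = 4.5e-108, edgeR). The ratio of the pooled counts was 300.0, with an exact 95% counting interval of 260 to 348. In head-thorax Lsp2 was 2.59-fold lower at 26 h than at 2 h (log2 ratio −1.37 ± 0.03, adjusted p = 2.6e-66, edgeR).

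Lsp1beta, at 2L:898500-901316 on the plus strand, encodes a subunit of larval serum protein 1. It held 3.34 and 2.72 CPM in abdomen, 104 and 100.1 CPM in 2 h head-thorax, and 81.3 and 82.8 CPM at 26 h. The head-thorax pools lay close together without overlap, and abdomen was far below. Lsp1beta was 34.5-fold lower in abdomen (log2 ratio −5.11 ± 0.07, adjusted p = 2.0e-80, edgeR). Between 26 h and 2 h the ratio was 1.25-fold, with a log2 value of −0.32 ± 0.03 (adjusted p = 1.5e-13, edgeR), and did not reach the 2-fold limit.

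Lsp1alpha, at X:12490291-12492982 on the plus strand, encodes another subunit of the same protein. It had only 2 and 4 counts in abdomen, against 465 and 323 in 2 h head-thorax and 110 and 119 at 26 h. On the CPM scale these were 0.0845 and 0.113, 14.6 and 14.7, and 3.88 and 3.80. All 3 pools were separate. Lsp1alpha was 138-fold lower in abdomen (log2 ratio −7.11 ± 0.22, adjusted p = 3.2e-49, edgeR), and with 6 counts in that pool the counting interval of the pooled ratio ran from 65.8 to 393. It was 3.81-fold lower at 26 h than at 2 h (log2 ratio −1.93 ± 0.10, adjusted p = 4.1e-30, edgeR).

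Lsp1gamma, at 3L:66430-68995 on the plus strand, was scarce everywhere, with 3 and 11 counts in abdomen, 20 and 22 in 2 h head-thorax and 24 and 14 at 26 h. In CPM these were 0.127 and 0.312, 0.626 and 1.00, and 0.847 and 0.447. Abdomen lay below both head-thorax pools, which overlapped each other. Lsp1gamma was 3.25-fold lower in abdomen (log2 ratio −1.70 ± 0.44, adjusted p = 2.7e-04, edgeR), and the log2 ratio was −2.57 without abdomen split library 2. For 26 h over 2 h the log2 ratio was −0.29 ± 0.35 (adjusted p = 0.541, edgeR), and its sign turned when split library 2 of either head-thorax pool was left out. No annotated gene overlaps Lsp1alpha, Lsp1beta or Lsp1gamma.

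Fbp1 encodes the fat body receptor through which larval serum protein 1 is taken back, and lies at 3L:14094589-14098053 on the minus strand. It was at 0 counts in both abdomen libraries, at 3 and 2 in 2 h head-thorax, and at 0 and 2 at 26 h. A count of 0 over the abdomen pool allows a level of up to 0.0509 CPM, set at 3 counts. Fbp2, at 2L:9426784-9427917 on the plus strand, encodes a larval fat body protein related in sequence to alcohol dehydrogenase, and had 1 and 4 counts in abdomen, 2 and 1 in 2 h head-thorax and 3 and 5 at 26 h. Neither gene was tested, and at this depth no difference was detectable for Fbp2. Its end overlaps the start of CG42847 by 48 bp, a gene with 1061 and 1477 counts in abdomen and 1 to 8 in the head-thorax libraries.

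**Figure D3:**
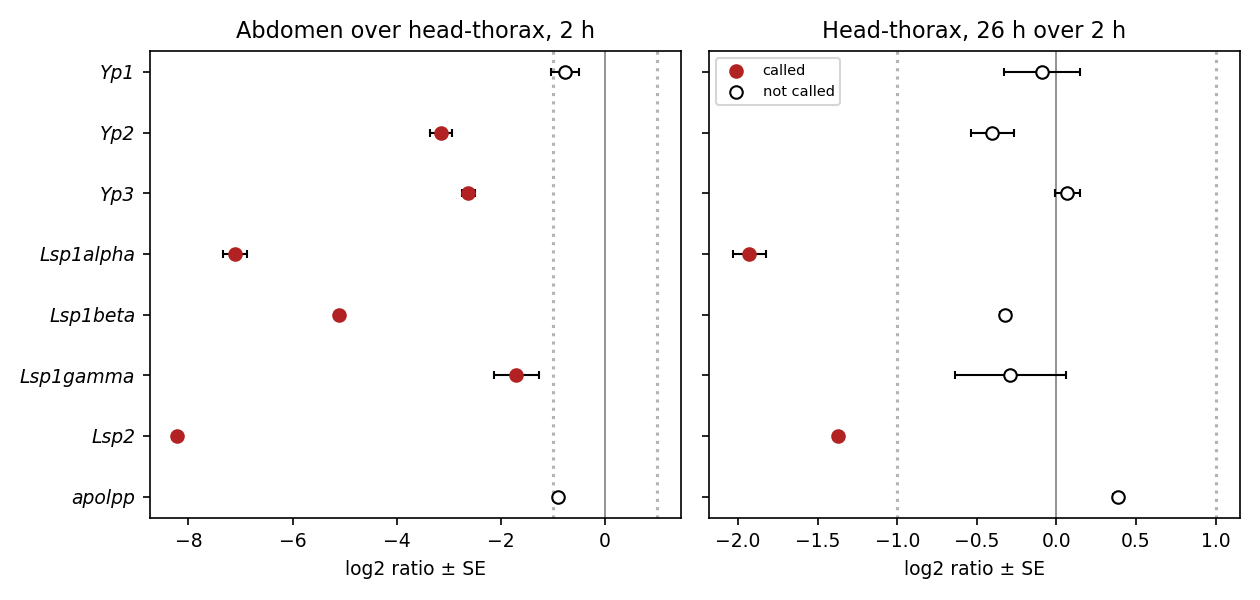
The log2 ratio ± standard error (edgeR) of the 8 tested genes for abdomen over 2 h head-thorax (left) and for 26 h head-thorax over 2 h (right), on separate axes; filled points passed the adjusted p and the 2-fold limit (dotted lines). All left-hand points lie below 0, with Lsp2 at −8.23 and Lsp1alpha at −7.11, and on the right Lsp1alpha at −1.93 and Lsp2 at −1.37 are the filled points.

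The larval serum protein genes did not keep fixed proportions. Per Lsp1beta count there were 1.05 and 1.13 Lsp2 counts in the abdomen libraries, 9.33 and 9.68 in 2 h head-thorax, and 4.55 and 4.57 at 26 h. Per Lsp1alpha count there were 7.18 and 6.79 Lsp1beta counts in 2 h head-thorax and 21.0 and 21.8 at 26 h. Both ratios are taken within a library and do not depend on scaling, and in both the head-thorax times were separate. Of the 386 larval serum protein counts in abdomen, Lsp2 gave 49.5% and Lsp1beta 45.3%. Of the 58696 in 2 h head-thorax they gave 89.2% and 9.42%, and of the 27503 at 26 h they gave 81.2% and 17.8%.

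Most of Lsp2 overlaps another gene. The annotated antisense gene asRNA:CR11538 (3L:12129103-12131488, minus strand) covers 2096 of the 2477 bp of Lsp2 and leaves 381 bp, or 15.4% of its length, free. The antisense gene had 78 and 101 counts in abdomen, 26775 and 18114 in 2 h head-thorax, and 8604 and 9664 at 26 h. It followed Lsp2 in every pool and was always the lower of the pair. Its own log2 ratios were −8.10 ± 0.05 for abdomen over head-thorax and −1.44 ± 0.03 for 26 h over 2 h.

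The counts of Lsp2 beyond those of its antisense gene were 5 and 7 in abdomen, 4341 and 3106 in 2 h head-thorax and 1888 and 2183 at 26 h. They were 6.28% of the Lsp2 count in abdomen (exact 95% interval 3.29% to 10.7%), 14.2% in 2 h head-thorax (13.9% to 14.5%) and 18.2% at 26 h (17.7% to 18.7%). The log2 ratio of this remainder was −9.41 for abdomen over head-thorax (counting interval −10.36 to −8.60) and −1.02 for 26 h over 2 h (−1.07 to −0.96). The remainder was thus 2.03-fold lower at 26 h, against 2.59-fold for the whole Lsp2 count. These intervals treat the remainder as a count of its own, which holds only if every antisense read was also counted for Lsp2. That is not known, and asRNA:CR11538 also extends beyond the start of Lsp2, so the intervals may be too narrow. From these counts, reads of the 2 strands cannot be told apart.

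**Figure D4:**
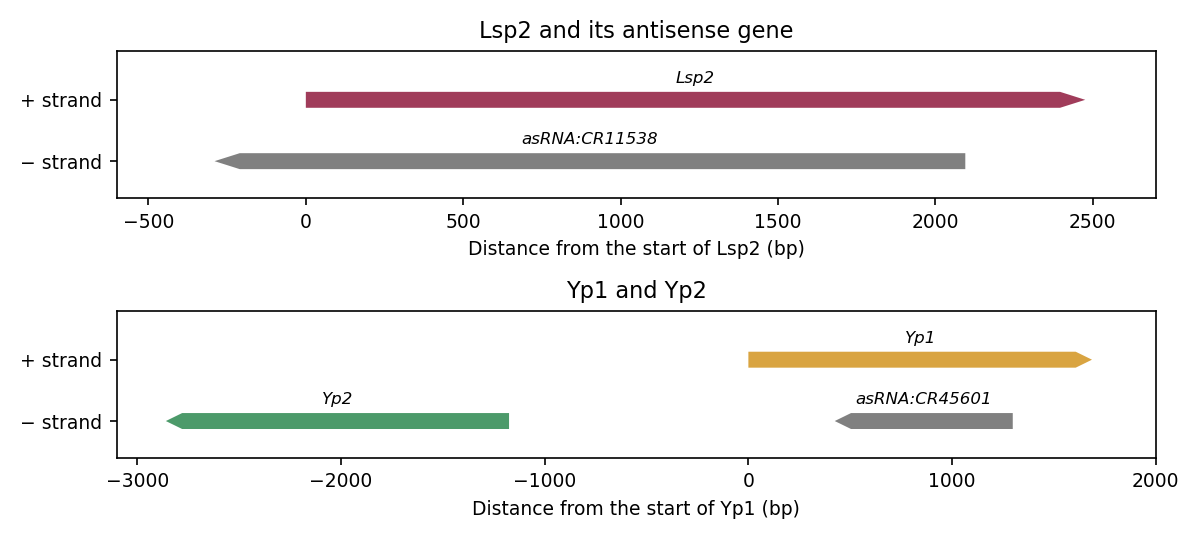
Maps to scale of the Lsp2 locus (top) and of the Yp1 and Yp2 loci (bottom), with distance in bp from the start of Lsp2 or of Yp1; arrows point in the direction of transcription and the rows are the strands. The antisense gene asRNA:CR11538 covers 2096 bp of Lsp2, asRNA:CR45601 lies wholly within Yp1, and a gap of 1174 bp separates Yp1 from Yp2.

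Since the larval serum proteins are known as larval products, genes of larval salivary gland and larval cuticle were set beside them. Over 12 such genes the sum was 0.397 to 0.423 CPM in abdomen, 1.32 to 2.07 CPM in 2 h head-thorax and 1.38 to 1.53 CPM at 26 h, and 5, 8 and 9 of them were at 0 counts. The glue protein genes Sgs3, Sgs4 and Sgs5 were at 0 in every library. Of the list's 2 genes that were tested, Sgs1 and Lcp1 were both lower in abdomen, and Lcp1 was also lower at 26 h, on 17 counts against 35. Over all tested genes the shares lower were 21.7% in abdomen and 1.5% at 26 h. That second Lcp1 call was lost with DESeq2's Wald test, with the 2-fold limit inside the model, and without split library 1 of either head-thorax pool. Their part in the larval serum protein values was not tested.

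Adult fat body markers did not all move as the storage protein genes did. Of 12 such genes, 4 were lower in abdomen than in 2 h head-thorax, Adh by a log2 ratio of −1.50, Tsf1 by −1.29, Pepck1 by −1.50 and Sardh by −4.20, 1 was higher (tobi, 1.13), and the median was 0.03. By the same limits 21.7% of all tested genes were lower and 35.6% higher in abdomen. FASN1, a fatty acid synthase gene, had 2118 and 2180 CPM in abdomen against 1217 and 1199 CPM in 2 h head-thorax, a log2 ratio of 0.83 that passed the 2-fold limit only with raw library totals among the settings tried. The summed level of the 12 markers was 7992 to 8225 CPM in abdomen, 13710 to 13885 CPM in 2 h head-thorax and 10083 to 10158 CPM at 26 h. At 26 h none reached the 2-fold limit in edgeR or DESeq2, although 3 were higher and 8 lower at an unadjusted p under 0.05 in edgeR, and the median log2 ratio was −0.30. Adh encodes alcohol dehydrogenase and Tsf1 a transferrin of the blood.

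Set against Adh in the same library, Lsp2 had 0.131 and 0.112 counts per 100 Adh counts in abdomen, 12.7 and 12.7 in 2 h head-thorax, and 7.20 and 7.31 at 26 h. Against Tsf1 the numbers were 0.426 and 0.351, 46.6 and 47.3, and 29.7 and 29.98 per 100 counts. Against FASN1 they were 0.166 and 0.140, 80.01 and 80.7, and 30.3 and 30.9 per 100 counts. By each of these genes the 3 pools kept the order seen in CPM. Adh overlaps 2 annotated genes, and how reads shared with them were counted is not given, here and for the Adh ratios below. Tsf1 and FASN1 overlap no annotated gene. Lsp1beta had 0.125 and 0.0991 counts per 100 Adh counts in abdomen, 1.36 and 1.32 in 2 h head-thorax, and 1.58 and 1.60 at 26 h, so relative to Adh it was higher at 26 h than at 2 h, whereas in CPM it was lower. Per 100 Tsf1 counts it had 0.406 and 0.312, 4.995 and 4.893, and 6.53 and 6.56, also higher at 26 h than at 2 h. Per 100 FASN1 counts it had 0.158 and 0.125, 8.58 and 8.34, and 6.65 and 6.77, which was lower at 26 h than at 2 h as in CPM. How much of each difference goes with the amount of fat body in a pool was not tested.

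The prophenoloxidases are the hexamerins' relatives in sequence, made by blood cells for melanin synthesis. None of the 3 reached 2-fold in abdomen against head-thorax in edgeR or DESeq2 (2 were lower at an unadjusted p under 0.05 in edgeR), with log2 ratios of −0.19 for PPO1, −0.29 for PPO2 and 0.47 for PPO3. At 26 h PPO2 was lower than at 2 h (log2 ratio −1.13 ± 0.05, adjusted p = 1.4e-37, edgeR), at 27.0 and 24.6 CPM against 56.2 and 56.5 CPM. PPO1 had a log2 ratio of −0.92 there and PPO3 of −0.39, and with raw library totals PPO1 passed too.

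The lipophorin gene apolpp lies at 4:1060969-1077273 on the plus strand. Its libraries held 2114 and 2004 CPM in abdomen, 3803 and 3895 CPM in 2 h head-thorax, and 5074 and 4990 CPM at 26 h. The pools did not overlap and their levels stood in that order, but neither difference reached 2-fold. The log2 ratio was −0.90 ± 0.03 for abdomen over head-thorax (1.87-fold, adjusted p = 4.5e-48, edgeR) and 0.39 ± 0.03 for 26 h over 2 h (1.31-fold, adjusted p = 2.2e-21, edgeR). Zyx, on the opposite strand, shares 4033 bp with apolpp, and its count was 1.97% to 2.28% of the apolpp count.

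With 120796 to 299946 counts per pool, apolpp was the one gene of the set whose technical libraries differed. Its split libraries differed by 1.055-fold in abdomen (adjusted p = 3.0e-17), 1.024-fold in 2 h head-thorax (2.4e-05) and 1.017-fold at 26 h (0.00124), by the two-sided exact binomial test with Benjamini-Hochberg adjustment. Split library 1 was the higher in abdomen and at 26 h, and split library 2 in 2 h head-thorax. Of all genes tested in this way, 1.83%, 0.638% and 0.459% differed in the 3 pools. No other gene of the set differed between split libraries where it had the 10 summed counts the test asked for, and expected splits from raw totals left apolpp different in abdomen alone. The technical differences of apolpp were smaller than its differences between pools.

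Against fat body genes, apolpp stood at 79.3 and 73.1 counts per 100 Adh counts in abdomen, 49.7 and 51.3 in 2 h head-thorax, and 98.7 and 96.3 at 26 h. Per Tsf1 count it had 2.57 and 2.30, 1.82 and 1.91, and 4.07 and 3.95 counts. On both measures 2 h head-thorax was the lowest pool. Per FASN1 count it had 0.999 and 0.919, 3.12 and 3.25, and 4.15 and 4.08 counts, with abdomen the lowest pool as in CPM, so the order depended on the gene it was set against.

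Of 12 other genes that load, exchange or take up lipoproteins, 11 were tested, 1 was higher and 1 lower in abdomen, and none reached 2-fold at 26 h in edgeR or DESeq2, where 4 were higher and 5 lower at an unadjusted p under 0.05 in edgeR. The shares over all tested genes were 35.6% higher and 21.7% lower in abdomen, and 6.21% and 1.5% at 26 h. The higher gene was cv-d, which encodes a lipoprotein related to vitellogenins, at 373 and 386 CPM in abdomen and 74.7 and 74.0 CPM in 2 h head-thorax (log2 ratio 2.35 ± 0.03, adjusted p = 1.6e-80, edgeR). The lower was Npc2a, for a sterol-binding protein, with a log2 ratio of −1.46. Among the most abundant of the others, the lipophorin receptor gene LpR2 had log2 ratios of 0.22 and 0.41 in these comparisons. Apoltp, for the lipid transfer particle that loads lipophorin, had −0.43 and 0.12, and the megalin gene mgl had 0.06 and 0.30. Mtp, which gives lipophorin its first lipid in the fat body, had −0.67 and −0.36.

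Per Apoltp count there were 11.6 and 11.1 apolpp counts in abdomen, 15.6 and 15.9 in 2 h head-thorax and 18.9 and 18.8 at 26 h. Per Mtp count the ratios were 43.3 and 41.0, 48.6 and 50.6, and 84.1 and 81.7. Both ratios rank the pools as the apolpp CPM does. The yolk receptor gene yl was not tested, with 0.380 and 0.227 CPM in abdomen, 0.0313 and 0 CPM in 2 h head-thorax and 0 counts at 26 h.

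Known regulators of yolk and storage protein genes were also lower in abdomen in part. Of 16 such genes, all tested, 9 were lower and none higher than in 2 h head-thorax (13 lower and 3 higher at an unadjusted p under 0.05 in edgeR). Among all tested genes, 21.7% were lower and 35.6% higher in abdomen. At 26 h none reached 2-fold in edgeR or DESeq2, and 5 were higher and 5 lower at an unadjusted p under 0.05 in edgeR. The number lower was 7 with DESeq2 size factors and 6 with raw totals, where 1 gene (Eip75B) was higher. With these scalings 2801 and 2637 of all tested genes were lower, against 3194, and 5454 and 5543 were higher, against 5233. The most abundant were the ecdysone response gene Eip75B, with log2 ratios of 0.81 for the body parts and 0.44 for the times, and the sex determination gene dsx, with −1.09 and 0.02. The GATA factor gene srp had −0.84 and −0.21, and gce, which encodes a juvenile hormone receptor, had −1.43 and 0.14. For dsx the libraries held 47.1 and 45.0 CPM in abdomen and 97.2 to 99.6 CPM in head-thorax, and it lost its call with either of those scalings.

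**Figure D5:**
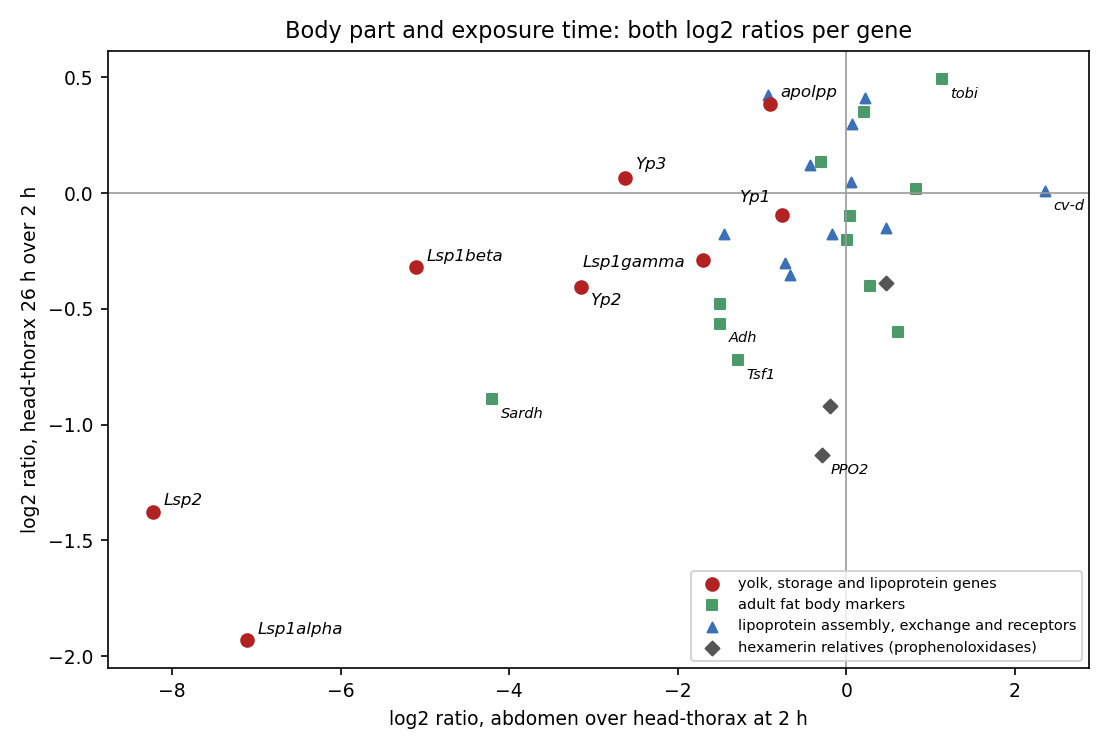
The log2 ratio of abdomen over 2 h head-thorax (horizontal) and of 26 h head-thorax over 2 h (vertical) for the 8 tested genes (red circles), adult fat body markers (green squares), other lipoprotein genes (blue triangles) and prophenoloxidases (grey diamonds). The 2 h head-thorax pool enters both ratios of each gene; Lsp2 (−8.23, −1.37) and Lsp1alpha (−7.11, −1.93) lie at the lower left, and apolpp (−0.90, 0.39) lies above the horizontal line.

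Levels of different genes were compared per kilobase of exon (RPKM), each given as a mean with the SD over both split libraries. In abdomen apolpp stood alone at 175 ± 6.61 RPKM. Lsp2 at 1.33 ± 0.128, Yp3 at 1.19 ± 0.113 and Lsp1beta at 1.10 ± 0.159 RPKM followed, and these neighbours overlapped in their libraries. Yp1 (0.517 RPKM) and Yp2 (0.367 RPKM) came next, and the ranges of their libraries did not overlap. Their counting intervals did, at 0.629 to 1.12 CPM for Yp1 and 0.413 to 0.826 CPM for Yp2, genes of nearly equal exon length. The Yp1 level also includes any reads of its antisense gene, so the order of these 2 genes in abdomen is uncertain. Lsp1gamma, Fbp2 and Lsp1alpha were below 0.1 RPKM, each overlapping its neighbour.

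In 2 h head-thorax Lsp2 was the highest of the set, at 392 ± 1.66 RPKM, ahead of apolpp at 327 ± 5.55 RPKM. Lsp2 ranked 183 and apolpp 225 among 12943 coding genes with counts in that pool. Lsp1beta followed at 37.2 ± 1.13 RPKM, then Yp3 at 7.21 ± 0.210, Lsp1alpha at 5.58 ± 0.0490, Yp2 at 3.22 ± 0.450 and Yp1 at 0.909 ± 0.0764 RPKM. No neighbours overlapped in their libraries here.

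At 26 h the order at the top was the other way round, with apolpp at 428 ± 5.05 RPKM (rank 147 of 12989) and Lsp2 at 151 ± 2.42 RPKM (rank 416). Lsp1beta stood at 29.9 ± 0.392 and Yp3 at 7.57 ± 0.183 RPKM. Yp2 at 2.47 ± 0.0764 RPKM was now above Lsp1alpha at 1.46 ± 0.0209 RPKM, the reverse of 2 h. The Lsp2 level includes any reads of its antisense gene. Together the 10 genes took 0.233% of all counts in abdomen, 0.483% in 2 h head-thorax and 0.502% at 26 h. Most of this was apolpp, at 0.238% and 0.226% in the abdomen libraries, 0.372% and 0.378% at 2 h, and 0.461% and 0.456% at 26 h. Lsp2 went the other way between the times, from 0.0954% and 0.0939% at 2 h to 0.0336% and 0.0346% at 26 h.

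The genes most like apolpp in their profile over the 3 pools were Pka-C3, CG2258 and Egm, by Euclidean distance of centred log2(CPM + 1) means among 3412 candidates. Pka-C3, for a protein kinase A subunit, was the closest (distance 0.0174), with mean levels of 125, 231 and 303 CPM in abdomen, 2 h head-thorax and 26 h head-thorax. For Yp1 the closest were yps (0.00667), CG31098 and egh, and the mean levels of yps were 137, 184 and 178 CPM. Yp1 itself had means of 0.834, 1.46 and 1.36 CPM, so the added 1 was about as large as its level. That shrinks the differences of Yp1 but hardly those of the candidates, which all reached 20 CPM in some pool. The small distance is thus to a flattened Yp1 profile and does not mean equal fold differences. With 3 pools as the only points, this is a description of 6 libraries and carries no test.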

How the data were processed

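The deposited files hold the authors' whole-number read counts per FlyBase gene, one file per library, without normalization, from single-end reads of 50 nt per the series' design text. The aligner, the counter and their genome build were not given in the sources used here. Each file lists only genes with at least 1 count, and a gene not listed was set to 0. Of 16942 genes, 16735 matched a symbol in Ensembl release 115 (BDGP6.54), which also gave positions, overlaps and exon lengths; 207 did not match and are not named.

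Counts were tested with edgeR 4.0.16 in R 4.3.3 (scaling by trimmed mean of M values, TMM, filterByExpr, quasi-likelihood test, all 6 libraries in 1 fit with 3 residual degrees of freedom, Benjamini-Hochberg over 14694 genes). A standard error is the log2 ratio divided by the square root of its F value. The p-values measure the spread between technical libraries (coefficient of variation 1.63%), not between pools of flies. CPM use TMM library sizes, and RPKM the merged exons. Split libraries were compared by exact binomial tests and counting intervals are exact 95% intervals (SciPy 1.17.1, Python 3.11.15); intervals and the limit of 3 counts cover counting error only. The alternatives tried were other scalings, filters and fits, DESeq2 1.42.0, summed libraries and each library left out. The fit and the split test recovered known changes in counts simulated from their own models, with most genes left unchanged. Those simulations cannot show how the scaling acts where many genes differ, as between the body parts.

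The 10 genes and all gene lists were chosen with earlier results of these data known. By rule, all 10 genes and the genes overlapping them are named; lists other than the markers give their counts, the 4 most abundant genes, every gene that passed where 5 or fewer did, and the 3 genes nearest in profile to Yp1 and apolpp. Named after their values were seen were the fat body, ovary and larval marker genes, the fat body genes used as references, and Mtp, yl, PPO1 and PPO3.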

Additional observations from a re-analysis of the deposited data

How the results depend on the processing

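Over 15 alternative settings, 237 of 240 log2 ratios of the tested genes kept their direction and their call, which takes the adjusted p and the 2-fold limit together; the other 3 concerned 26 h over 2 h. Yp3 went from 0.07 to −0.030 with raw library totals, and Lsp1gamma from −0.29 to 0.026 without split library 2 of 2 h head-thorax and to 0.12 without split library 2 at 26 h. Over the libraries left out, Lsp1gamma ran from −0.80 to 0.12 at 26 h. The count of genes of the set lower in abdomen stayed at 6 except with no filter on low counts, where Fbp1 made it 7 (adjusted p = 0.04405, edgeR). That call rests on 0 counts in abdomen against 5 in 2 h head-thorax, and the counting interval of the ratio reached 0.997. At 26 h 2 were lower throughout. Below the 2-fold limit the adjusted p alone passed 0.05 in places. For Yp1 in abdomen it was 0.105 with DESeq2's Wald test and 0.883 with the 2-fold limit inside the model. For Yp2 at 26 h it was 0.268 with DESeq2's Wald test, and in edgeR 0.379 without split library 1 of 2 h head-thorax and 0.0698 without split library 1 at 26 h. With the 2-fold limit inside the edgeR model it was 1 for Yp2, Lsp1beta and apolpp at 26 h and for apolpp in abdomen, since each ratio is under 2-fold. With DESeq2 size factors the all-gene median shifted by 0.14 (log2) for the body parts and 0.04 for the times, and with raw totals by 0.21 and −0.08.

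Over all genes, 912 were higher and 220 lower at 26 h. Testing the 2-fold limit inside the model gave 317 and 88, and the DESeq2 Wald test 131 lower. Leaving out 1 library gave 702 to 887 higher and 180 to 202 lower at 26 h, and 5008 to 5454 higher and 3012 to 3251 lower in abdomen. With the split library number as a replicate block, 5222 were higher and 3195 lower in abdomen and 891 and 190 at 26 h, and the set again had 6 and 2 lower. Over 11308 genes, deviations of same-numbered libraries correlated at 0.00906 and 0.00808 between abdomen and the 2 h and 26 h head-thorax pools. Between the 2 head-thorax pools the correlation was weak but higher, at 0.116. With splits expected from raw totals, 0 genes of the set differed between split libraries in 2 h head-thorax and 0 at 26 h. The cause of these changes was not tested.

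The order of the 10 genes by RPKM kept every pair separated by its libraries when whole gene spans, raw totals or a single split library were used. Depth limits Fbp1, Fbp2, Lsp1gamma and, in abdomen, Lsp1alpha, whose values rest on 14 counts or fewer in the abdomen pool. With 1 pool per group, no value includes the variation between flies.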
